A study of Homo sapiens with 8 samples.

Results

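The genes described here encode the proteins of the cytosolic ribosome. They were taken from the deposited expression table by symbol: names of the form RPL or RPS followed by a number (with or without a final A or X), plus RPLP0, RPLP1, RPLP2 and RPSA. The rule found 77 of the 61906 genes in the table, 31 of the small (40S) subunit and 46 of the large (60S) subunit, and used no difference between the groups. For any symbol that repeated, it kept the row with the highest mean. The RNA came from U251, a human glioblastoma cell line of WT genotype. Cells were exposed for 24 h to vehicle (DMSO, 4 libraries) or to 100 nM LLY-283 (4 libraries), a small molecule inhibitor of the arginine methyltransferase PRMT5, and the libraries of each group are labelled as biological replicates, with nothing said of separate cultures, so p-values measure the spread between these libraries. Transcripts were captured on oligo-dT beads, and each gene's level is given in TPM, an estimate of its share of all transcripts in the library that is corrected for transcript length and scaled to the same total in every library. All 8 libraries come from 1 cell line at 1 dose and 1 time. The comparison asks how the messenger RNAs (mRNAs) of the ribosome's protein components stood after PRMT5 inhibition.

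A ribosome holds a single copy of nearly every one of these proteins, except for the acidic stalk proteins RPLP1 and RPLP2, so proliferating cells make them in near equal amounts and from very abundant mRNAs. Most of these mRNAs start with a terminal oligopyrimidine (TOP) tract, an unbroken run of C and T at the 5′ end, through which LARP1 and the mTOR pathway set how much of the mRNA is translated. PRMT5 transfers methyl groups to arginines, and its known substrates include spliceosomal Sm proteins, histones and, within the ribosome, RPS10. Methylation acts on the protein, so levels of mRNA do not report it.

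The start sites of the genes that passed the test of the drug effect, and of RPS10, are shown because the TOP tract is the sequence feature that these genes are known to share. Each line gives the 30 bases from 10 before to 20 from the annotated RefSeq start on, 5′ to 3′ on the transcript strand (GRCh38.p14), with the longest C/T run that reaches within 5 bases of the start base in capitals. The windows lie at chr9:127451387-127451416 (RPL12, minus strand), chr11:17077648-17077677 (RPS13, minus), chr11:119018324-119018353 (RPS25, minus), chr15:66504836-66504865 (RPL4, minus), chr3:40457329-40457358 (RPL14, plus), chr4:108620566-108620595 (RPL34, plus), chr17:74203668-74203697 (RPL38, plus) and chr6:34426050-34426079 (RPS10, minus).
RPL12: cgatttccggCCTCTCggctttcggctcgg
RPS13: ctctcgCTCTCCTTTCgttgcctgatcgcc
RPS25: gcagcgCTTCCTTTTTgtccgacatcttga
RPL4: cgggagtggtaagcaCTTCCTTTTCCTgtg
RPL14: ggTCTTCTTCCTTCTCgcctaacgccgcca
RPL34: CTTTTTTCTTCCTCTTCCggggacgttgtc
RPL38: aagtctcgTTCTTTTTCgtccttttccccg
RPS10: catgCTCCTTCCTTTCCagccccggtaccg

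The run was 6 bases long in RPL12, 9 in RPL38, 10 in RPS13 and in RPS25, 12 in RPL4, 14 in RPL14 and 18 in RPL34. RPL5 and RPL23A, which also passed the test, had no entry. Of the 77 genes, 62 matched a RefSeq promoter entry by symbol. A C/T run of at least 5 bases on the transcript strand came within 5 bases of the start in 56 of the 62 (90.3%), against 35.6% of all 27305 promoter windows. A run of at least 8 bases did so in 47 (75.8%), against 11.3% of all windows, and the median run was 11 bases against 4. The run is a description of the annotated start, which may differ from the start used in these cells.

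In U251 cells the 77 genes were among the most abundant mRNAs. All of them passed the filter of a mean of at least 1 TPM, which left 14478 genes for testing. Their means over the 8 libraries ran from 460.9 TPM for RPS28 to 4396 TPM for RPS2, with a median of 1428 TPM against 17.1 TPM for all genes tested. Of the 100 genes with the highest mean, 45 were ribosomal protein genes, and 73 were among the first 200. Near the top of the order stood RPS2, RPL41, RPS27 and RPL4, and at the bottom RPS28, RPL34, RPS26, RPL22 and RPL14. In vehicle RPS2 (part of the mRNA entry site) stood at 4391 ± 111 TPM, RPS27 at 3661 ± 154 TPM and RPL41, the smallest ribosomal protein, at 3611 ± 139 TPM (SD, n = 4). The neighbours RPS27 and RPL41 differed by less than these SDs.

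As a share of each library, the 77 genes took 11.9%, 12.1%, 11.6% and 12.1% of all TPM in the vehicle libraries. In the LLY-283 libraries they took 12.1%, 12.3%, 12.04% and 13.2%. The groups overlapped, and LLY-283 replicate 4 stood above the other 7 libraries. The means were 11.9 ± 0.243% and 12.4 ± 0.521% (SD, n = 4 each), or 119374 and 124045 TPM, which is 3.91% more with LLY-283 and 1.79% more without LLY-283 replicate 4 (12.2 ± 0.148%, n = 3). The summed TPM of the small subunit genes was 3.05% higher and that of the large subunit genes 4.52% higher (1.15% and 2.24% without that library). The small subunit's part of the sum was 41.1 ± 0.290% in vehicle and 40.7 ± 0.159% with LLY-283, so the balance of the subunits stayed within 1 percentage point in these libraries. In a bulk RNA sample, fewer cells of a kind and less RNA per cell cannot be told apart.

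LLY-283 replicate 4 also differed in its mitochondrial transcripts, which took 7.19% of that library against 10.2% to 11.0% of the others. It was the highest library for 66 of the 77 genes, and vehicle replicate 3 was the lowest for 45. Because TPM adds up to a fixed total, a lower mitochondrial share raises the shares of other genes. Among non-mitochondrial TPM the 77 genes took 13.3 ± 0.234% in vehicle and 13.8 ± 0.308% with LLY-283 (SD, n = 4), and 13.6% without replicate 4 (n = 3). On this base too LLY-283 replicate 4 was the highest library, at 14.2% against 13.0% to 13.8% in the others. Values without that library are therefore set beside many of the results below. Of 7 glial and glioblastoma markers, all were above 1 TPM, from S100B at 4.34 TPM to VIM at 4301 TPM in vehicle. With LLY-283 3 of them fell (NES, GFAP and SOX2) and CD44 rose, against 17.6% of all genes tested lower and 8.61% higher. VIM also fell when LLY-283 replicate 4 was left out (limma adjusted p = 0.00179), and the part of this shift in the values of the ribosomal protein genes was not tested. Markers of blood (PTPRC), epithelium (EPCAM), endothelium (PECAM1) and oligodendrocytes (MBP) were each under 1 TPM. The mRNA of the drug's target, PRMT5, stood at 100.0 ± 5.03 TPM in vehicle and 100.4 ± 4.91 TPM with LLY-283 (log2 fold change 0.01, limma adjusted p = 0.944, and −0.021 without LLY-283 replicate 4). The drug acts on the enzyme, so this value does not check the exposure.

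**Figure D1:**
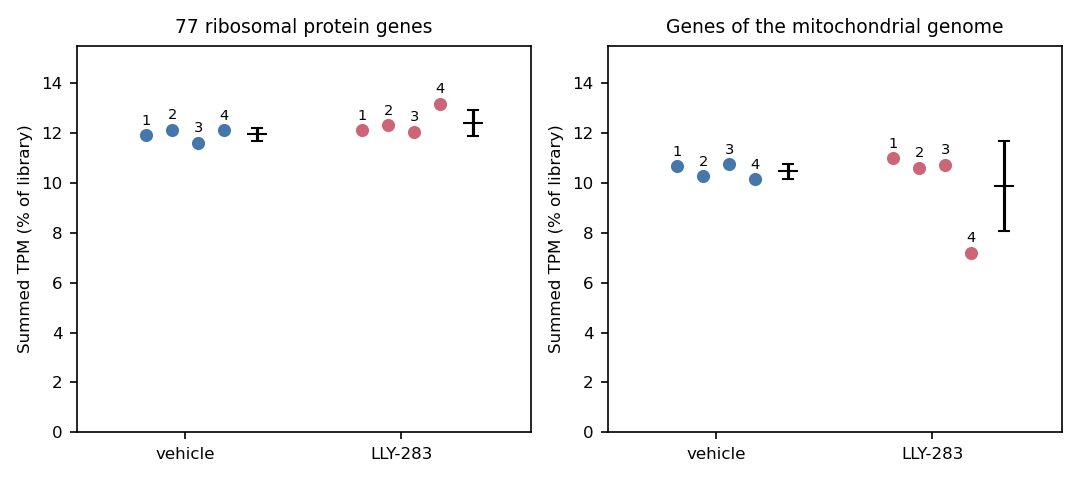
Summed TPM of the ribosomal protein genes, and of mitochondrial transcripts, as a percent of all TPM in each library, with each point a library and each black bar a group mean with its SD (n = 4). LLY-283 replicate 4 has the highest ribosomal protein share (13.2%) and the lowest mitochondrial share (7.19%).

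Changes in single genes were small. In the limma fit across all 14478 genes, 8 of the 77 ribosomal protein genes were higher with LLY-283 and 1 was lower at an adjusted p under 0.05. The 8 are 10.4% of the 77, near the 8.61% of all genes tested that were called higher, and the single lower gene is 1.3% against 17.6%. None passed when a change above 1.5-fold was also asked, which 3.87% of all genes did, and 28 were higher and 1 lower at an unadjusted p under 0.05 (13.2% and 25.4% of all genes). The higher genes were RPS13, RPL5, RPL4, RPL14, RPL23A, RPL38, RPS25 and RPL34, and the lower gene was RPL12. Without regard to the test, 70 of the 77 log2 fold changes were above 0 and 7 below, with a median of 0.06 against −0.05 over all genes tested. The contrast was nearly lost under quantile normalization, with 51 above 0 and a median of 0.023 against 0.014 over all genes. It stood at 0.12 against 0.01 under median-of-ratios scaling, 0.05 against −0.06 with mitochondrial genes left out and 0.18 against 0.03 with a length and GC trend removed. The lowest was −0.14 (RPL12), and 62 of the 77 lay within 0.1 of 0, against a median standard error of 0.038. Without LLY-283 replicate 4 the same 9 genes were called, 4 more were called higher (RPL19 and RPL32 among them, named after their values were seen), and the median was 0.03 against −0.04. Those 12 higher calls are 15.6% of the 77, against 10.4% of all genes in that fit, and the lower call stands against 18.4%. Leaving out vehicle replicate 1, 2 or 3 instead cut the 8 higher calls to 2 each time, RPL5 and RPS13, and left RPL12 as the lower call. Those 2 are 2.6% of the 77, below the 6.42%, 6.42% and 7.07% of all genes in these fits. The lower call, 1.3% of the 77, stands against 14.1%, 14.2% and 13.1%.

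The 4 LLY-283 values lay wholly above the 4 vehicle values for 18 genes and wholly below for RPL12 alone. Over all genes tested these shares were 9.63% and 19.6%, so the 18 genes (23.4%) were above the background and the single gene below it. Without LLY-283 replicate 4 the counts were 18 and 2, against 13.8% and 24.0% of all genes. The counts moved with the scaling of the libraries. Quantile normalization called 7 higher (9.09% of the 77, below the 12.9% of all genes) and 3 lower (12.6% of all genes). Median-of-ratios scaling called 28 higher and 0 lower (15.0% and 11.8% of all genes). Removal of a smooth trend of fold change on transcript length and GC content called 61 higher and 0 lower (19.4% and 11.4% of all genes).

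**Figure D2:**
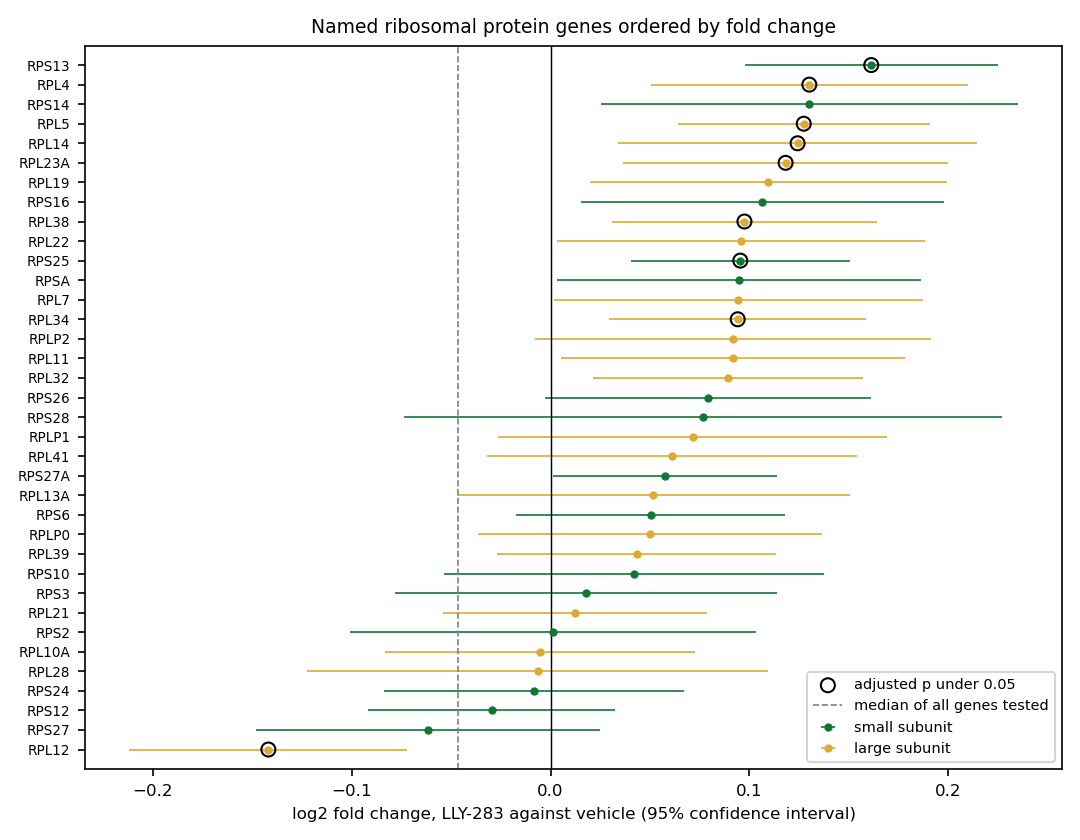
The log2 fold change (LLY-283 against vehicle, log2 of TPM plus 0.1) of the ribosomal protein genes that the text names, with its 95% confidence interval, in order of size. RPL12 is the lowest at −0.14 and RPS13 lies at 0.16, and rings mark the 9 genes that passed an adjusted p of 0.05.

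RPL12 is a protein of the base of the ribosomal stalk, which recruits translation factors (ENSG00000197958.13, chr9:127447674-127451406, minus strand, GENCODE annotation of GRCh38). It was the only gene of the 77 that fell in the main fit. It stood at 2098, 2124, 2045 and 2103 TPM in the vehicle libraries and at 1869, 1882, 1838 and 2001 TPM in the LLY-283 libraries. All 4 LLY-283 values lay below the lowest vehicle value, and the nearest was LLY-283 replicate 4, the library in which most of the other genes were highest. The means were 2093 ± 33.9 and 1897 ± 71.3 TPM (SD, n = 4), a change of −9.33% (log2 fold change −0.14, SE 0.031, limma adjusted p = 0.00970). Without LLY-283 replicate 4 the log2 fold change was −0.17 (limma adjusted p = 0.000619). It was the lowest of the 77 genes in all 21 settings tried and was called lower in 19. The exceptions were median-of-ratios scaling (−0.08, limma adjusted p = 0.187) and removal of the length and GC trend (0.004, limma adjusted p = 0.944), which raised the other genes as well.

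The partners of RPL12 in the stalk did not pass the test. RPLP0, which carries the stalk, stood at 2948 ± 73.2 TPM in vehicle and 3055 ± 157 TPM with LLY-283 (log2 fold change 0.05, limma adjusted p = 0.374, and 0.014 without LLY-283 replicate 4). RPLP1 and RPLP2, the acidic proteins of its tip, had log2 fold changes of 0.07 and 0.09 (limma adjusted p = 0.259 and 0.159), and of 0.031 and 0.052 without that library. RPL12 was thus the single member of the 4 stalk genes with a value below 0.

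RPS13, a protein of the body of the small subunit, had the smallest adjusted p of the 77 genes (ENSG00000110700.7, chr11:17074388-17077715, minus strand). Its levels were 872.1, 909.3, 849.6 and 899.2 TPM in vehicle and 987.1, 998.3, 964.0 and 997.3 TPM with LLY-283. The groups were well apart, and LLY-283 replicate 4 did not stand out. The mean rose by 11.8%, from 882.6 ± 27.0 to 986.7 ± 15.96 TPM (log2 fold change 0.16, SE 0.028, limma adjusted p = 0.00335). Without LLY-283 replicate 4 the log2 fold change was again 0.16 (limma adjusted p = 0.00428). The gene was called higher in 21 of 21 settings and was among the 2 highest fold changes of the 77 in each. RPS25, of the small subunit head and known for its need in translation from internal ribosome entry sites, was at 1144, 1143, 1129 and 1167 TPM in vehicle and at 1192, 1219, 1240 and 1246 TPM with LLY-283. Its groups did not overlap either, and it rose by 6.84% (log2 fold change 0.10, SE 0.025, limma adjusted p = 0.0194, and 0.087 without LLY-283 replicate 4). It was called in 14 of 21 settings, and under quantile normalization its log2 fold change was 0.027 (limma adjusted p = 0.497).

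RPL5 and RPL11 bind 5S rRNA, and outside the ribosome this particle binds MDM2, the ligase that holds p53 low. RPL5 (chr1:92832013-92841924, plus strand) was at 1409, 1405, 1395 and 1416 TPM in vehicle and at 1509, 1533, 1494 and 1610 TPM with LLY-283. The vehicle libraries spanned a narrow range, and every LLY-283 library lay above it (9.27% higher, log2 fold change 0.13, SE 0.028, limma adjusted p = 0.0101, and 0.10 without LLY-283 replicate 4). It was called in 20 of 21 settings, quantile normalization being the exception (0.056, limma adjusted p = 0.0517). RPL11 was at 1916, 1982, 1879 and 1972 TPM in vehicle and at 2007, 2016, 2014 and 2228 TPM with LLY-283. These groups did not overlap, but the gene did not pass the test (log2 fold change 0.09, limma adjusted p = 0.111, and 0.06 with an adjusted p of 0.0860 without LLY-283 replicate 4).

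RPL4, RPL23A and RPL22 are counted here with the 9 proteins of the wall and rim of the tunnel through which the new peptide leaves, and 2 of the 9 rose (3 without LLY-283 replicate 4), against 8.61% of all genes higher in the main fit and 10.4% without that library. RPL4, which lines the narrowest stretch of the tunnel (chr15:66498015-66524532, minus strand), was at 3166, 3282, 3274 and 3298 TPM in vehicle and at 3494, 3488, 3463 and 3814 TPM with LLY-283. The fourth LLY-283 library was far above the other 3, yet these also lay above all vehicle libraries (9.51% higher, log2 fold change 0.13, SE 0.036, limma adjusted p = 0.0248, and 0.097 without that library). It was called in 14 of 21 settings. RPL23A, at the tunnel's rim where nascent chain factors dock, was at 1094, 1148, 1127 and 1158 TPM in vehicle and at 1191, 1241, 1178 and 1305 TPM with LLY-283 (log2 fold change 0.12, limma adjusted p = 0.0398, and 0.089 without LLY-283 replicate 4). It was called in 12 of 21 settings. Pseudogene rows of RPL23A added up to 13.9% of its own level, and with their TPM added the gene no longer passed (log2 fold change 0.091, limma adjusted p = 0.112). RPL22 did not pass (595.2 ± 27.8 and 636.0 ± 26.7 TPM, log2 fold change 0.10, limma adjusted p = 0.119).

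The other 3 genes that rose belong to the large subunit. RPL14 was at 654.8, 663.4, 648.4 and 667.5 TPM in vehicle and at 701.1, 705.5, 685.0 and 783.0 TPM with LLY-283 (log2 fold change 0.12, limma adjusted p = 0.0478). RPL38, known from mice in which its loss disturbs the translation of Hox mRNAs, was at 1397, 1422, 1364 and 1457 TPM in vehicle and at 1459, 1536, 1500 and 1540 TPM with LLY-283 (log2 fold change 0.10, limma adjusted p = 0.0380). RPL34 was at 480.6, 463.4, 469.7 and 486.7 TPM in vehicle and at 509.3, 494.9, 497.7 and 526.6 TPM with LLY-283 (log2 fold change 0.09, limma adjusted p = 0.0386). In all 3 the groups were apart, for RPL38 and RPL34 by a gap narrower than the SD of either group. Without LLY-283 replicate 4 the log2 fold changes were 0.082 (RPL14), 0.088 (RPL38) and 0.076 (RPL34), and all 3 passed. RPL14 was called in 12 of 21 settings, RPL38 in 13 and RPL34 in 12, and under quantile normalization RPL38 was at 0.033 (limma adjusted p = 0.353) and RPL34 at 0.046 (limma adjusted p = 0.153).

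**Figure D3:**
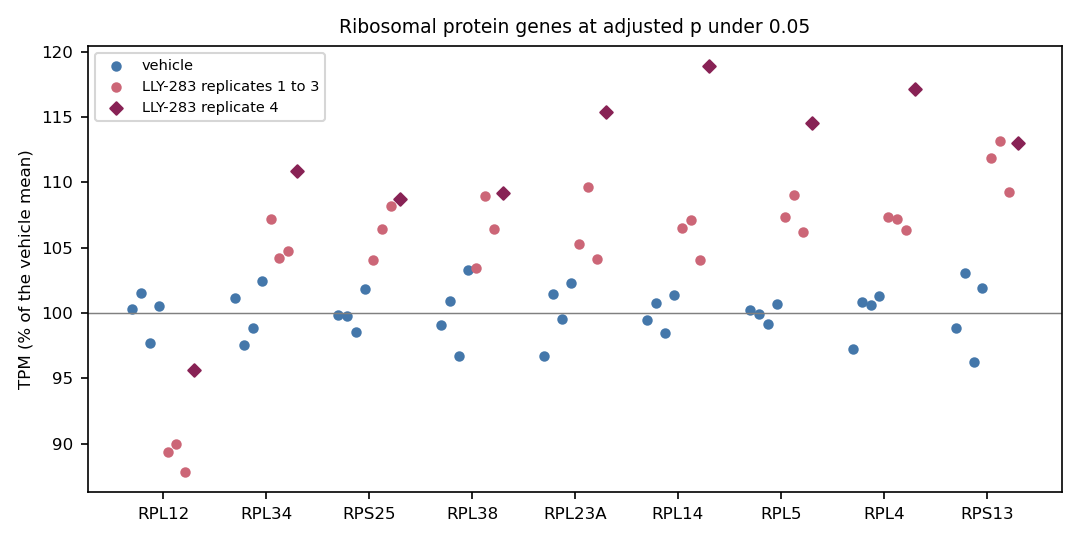
TPM of the 9 genes that passed an adjusted p of 0.05, drawn as a percent of each gene's vehicle mean on an axis that does not start at 0, with each point a library. The LLY-283 values of RPL12 lie below all vehicle values, and those of the other 8 genes lie above them.

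Other small subunit genes along the path of the mRNA did not pass. RPS14, whose partial loss marks the 5q- form of myelodysplastic syndrome, was at 721.7, 832.4, 802.3 and 785.1 TPM in vehicle and at 847.2, 866.0, 818.1 and 904.0 TPM with LLY-283. Its groups overlapped, with LLY-283 replicate 3 below vehicle replicate 2 (785.4 ± 46.7 and 858.8 ± 36.0 TPM, log2 fold change 0.13, limma adjusted p = 0.0679). RPS26 was at 592.7 ± 16.7 and 626.4 ± 28.5 TPM, and RPS28 at 447.9 ± 19.1 and 473.9 ± 49.2 TPM. Their log2 fold changes were 0.079 and 0.077 (limma adjusted p = 0.143 and 0.434), and 0.051 and 0.013 without LLY-283 replicate 4.

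RPS10, the ribosomal protein that PRMT5 methylates, was at 1545, 1533, 1460 and 1571 TPM in vehicle and at 1532, 1561, 1497 and 1704 TPM with LLY-283. The groups overlapped, and without LLY-283 replicate 4 they were almost at the same level (log2 fold change 0.04, 95% confidence interval −0.05 to 0.14, limma adjusted p = 0.504, and 0.003 without that library). RPS2, a substrate of another arginine methyltransferase, PRMT3, was at 4391 ± 111 and 4401 ± 293 TPM, with a log2 fold change of 0.001 (95% confidence interval −0.10 to 0.10, limma adjusted p = 0.988, and −0.044 without LLY-283 replicate 4). RPS3, which has a DNA lyase activity besides its ribosomal role, had a log2 fold change of 0.02 (limma adjusted p = 0.790, and −0.017 without that library). RPS6, the substrate of the S6 kinases, had one of 0.05 (limma adjusted p = 0.250, and 0.027 without it). RPSA, also known as the laminin receptor, and RPL13A, released from the ribosome to repress translation in the interferon response, had values of 0.09 and 0.05 (limma adjusted p = 0.118 and 0.422), and of 0.055 and 0.0079 without it.

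Below 0, besides RPL12, the lowest values were those of RPS27, RPS12, RPS24 and RPL28, none of which passed in the main fit. RPS27, a zinc finger protein of the small subunit, was at 3798, 3709, 3440 and 3698 TPM in vehicle and at 3448, 3463, 3422 and 3696 TPM with LLY-283. Vehicle replicate 3 lay among the LLY-283 values, and the other 3 vehicle libraries lay above all of them (log2 fold change −0.06, limma adjusted p = 0.271, and −0.09 with an adjusted p of 0.0765 without LLY-283 replicate 4). RPS12 was at 1859 ± 52.0 and 1821 ± 28.8 TPM (log2 fold change −0.03, limma adjusted p = 0.467). Under quantile normalization both were called lower, RPS27 at −0.081 (limma adjusted p = 0.0291) and RPS12 at −0.077 (limma adjusted p = 0.0185). RPS24 and RPL28 had values of −0.008 and −0.006 (limma adjusted p = 0.877 and 0.942), and of −0.033 and −0.053 without LLY-283 replicate 4.

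To set aside what moved all of the ribosomal protein genes together in a library, each level was also taken as a percent of the summed TPM of the 77 genes in that library. On this scale 9 genes were higher in every LLY-283 library than in any vehicle library (11.7%, against 4.09% of all genes tested on the same scale) and 6 were lower (7.79%, against 25.7%). The divisor is the sum of the 77 genes themselves, so it centres them and shifts all other genes. In TPM the shares of all genes were 9.63% and 19.6%. The contrast with all genes on this scale is therefore partly set by construction, and nothing is concluded from it. RPL12 made up 1.76%, 1.75%, 1.76% and 1.74% of the sum in vehicle and 1.55%, 1.53%, 1.53% and 1.52% with LLY-283. The means were 1.75 ± 0.0120% and 1.53 ± 0.0108% (SD, n = 4), far apart beside the spread within each group, and LLY-283 replicate 4 fell in with its group. RPS27 made up 3.19%, 3.06%, 2.96% and 3.05% in vehicle and 2.85%, 2.81%, 2.84% and 2.81% with LLY-283, so that its groups were apart on this scale and not in TPM. RPS13 made up 0.732%, 0.750%, 0.732% and 0.742% in vehicle and 0.816%, 0.810%, 0.801% and 0.758% with LLY-283. Among the other genes with a higher share were RPL4, RPL5, RPL11, RPL14, RPL23A and RPS16, and the other genes with a lower share were RPS12, RPS24, RPL10A and RPL21. RPS16, RPL10A and RPL21 are named here after their values were seen. The shares of 1 sum depend on each other, and no test was run on them.

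**Figure D4:**
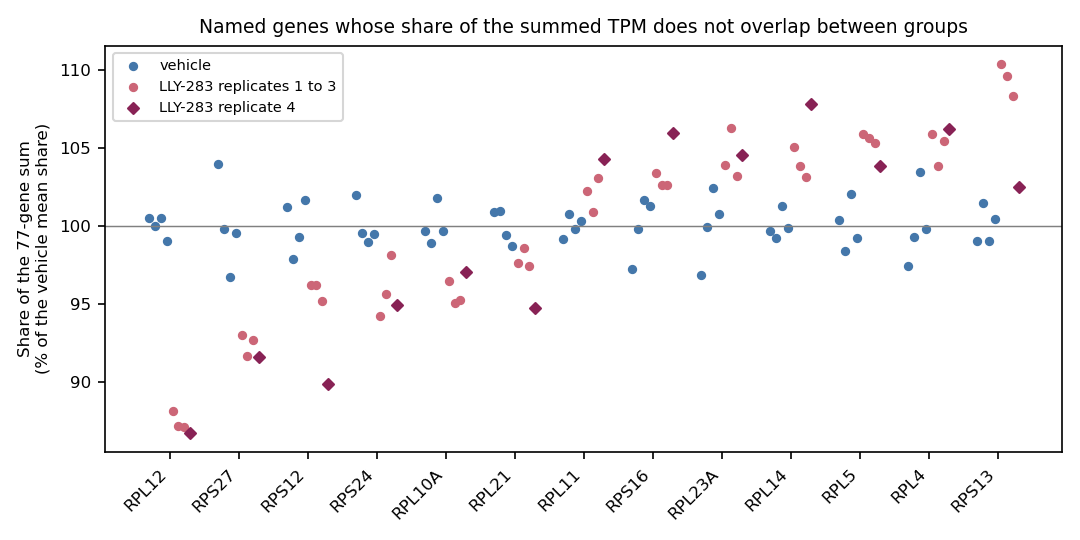
Share of the summed TPM of the 77 genes, drawn as a percent of its vehicle mean on an axis that does not start at 0, with each point a library, for genes named in the text whose 4 LLY-283 values all lay above or all below the 4 vehicle values. RPL12 goes from a mean of 1.75% to 1.53%, with both groups tightly clustered.

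Grouped by subunit, the median log2 fold change was 0.06 over the 31 small subunit genes (2 higher, 0 lower) and 0.07 over the 46 large subunit genes (6 higher, 1 lower). These counts and those below stand against 8.61% of all genes higher and 17.6% lower, or 10.4% and 18.4% without LLY-283 replicate 4. Without that library the small subunit median was 0.031 (3 higher, 0 lower) and that of the large subunit 0.047 (9 higher, 1 lower). The 28 genes with a small nucleolar RNA (snoRNA) in an intron, 59 snoRNAs in all, had a median of 0.05 (4 higher, 1 lower), and the 49 others had one of 0.07 (4 higher, 0 lower). Without that library these were 0.031 (6 higher, 1 lower) and 0.043 (6 higher, 0 lower). Of the 47 genes with a C/T run of 8 bases or more at the start, 6 were higher and 0 lower (median 0.07), or 7 and 0 without that library (median 0.043). Of the 15 with a shorter run, 0 were higher and 1, RPL12, was lower (median 0.06), or 1 and 1 without it (median 0.025). Of the 15 with no promoter entry, 2 were higher and 0 lower (median 0.06), or 4 and 0 without it. Among 13 genes mutated in Diamond-Blackfan anaemia, an inherited failure of red cell production, only RPL5 passed, with and without that library (median 0.06, and 0.031 without it). The difference between these groups was not tested.

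Genes that work with the ribosomal proteins were read from the same fit. FAU, which encodes a ribosomal protein fused to a relative of ubiquitin and which the symbol rule leaves out, had a log2 fold change of 0.08 (limma adjusted p = 0.248), and of 0.027 without LLY-283 replicate 4. Of 8 paralogs of ribosomal protein genes, 6 were tested, with a median of 0.02 on this scale. RPL7L1, a nucleolar relative of RPL7, fell from 105.3 ± 2.49 to 95.7 ± 2.33 TPM (log2 fold change −0.14, limma adjusted p = 0.00955, and −0.15 without that library). RPL22L1 and RPS27L had values of 0.004 and 0.03 (limma adjusted p = 0.961 and 0.750), and of 0.048 and 0.022 without it.

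Of 22 other genes known for TOP transcripts, such as elongation factors but also some noncoding genes, 7 rose and 1 fell, with a median of 0.08 (10 and 2, with a median of 0.054, without LLY-283 replicate 4). SNHG1, a noncoding gene named here outside the naming rule, was among the 7 (log2 fold change 0.19, limma adjusted p = 0.0495). Here and in the next 3 lists the background is 8.61% of all genes higher and 17.6% lower, or 10.4% and 18.4% without that library. EIF4B, a helper of the helicase that unwinds the mRNA's 5′ end, rose from 203.4 to 235.7 TPM (log2 fold change 0.21, limma adjusted p = 0.000633), and PABPC1, the poly(A)-binding protein, fell from 480.4 to 449.1 TPM (log2 fold change −0.10, limma adjusted p = 0.0467). Of 11 regulators of TOP mRNA translation and S6 phosphorylation, 1 rose and 2 fell (2 and 1 without that library). The kinase gene MTOR went from 41.2 to 35.8 TPM (log2 fold change −0.20, limma adjusted p = 0.00137) and RPS6KB2, an S6 kinase, from 44.7 to 53.3 TPM (log2 fold change 0.26, limma adjusted p = 0.00392). LARP1, which binds the TOP tract itself and is named here outside the naming rule, was at 92.5 and 92.7 TPM.

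Of 10 dedicated chaperones, which escort new ribosomal proteins, 6 rose and 2 fell, with a median of 0.12 (5 and 2, with a median of 0.098, without LLY-283 replicate 4). LTV1, an escort of RPS3 in small subunit assembly, rose from 35.6 to 44.8 TPM (log2 fold change 0.33, limma adjusted p = 0.000431). PDCD2, the chaperone of RPS2, fell from 70.2 to 58.0 TPM (log2 fold change −0.28, limma adjusted p = 0.00101). Among 11 ribosome quality control genes, which act on stalled ribosomes, 5 rose and 0 fell, with a median of 0.14 (5 and 1, with a median of 0.12, without it). ASCC2, of the complex that splits collided ribosomes, went from 49.9 to 56.4 TPM (log2 fold change 0.18, limma adjusted p = 0.0119). Without LLY-283 replicate 4 the log2 fold changes of EIF4B (0.21), PABPC1 (−0.11), MTOR (−0.21), RPS6KB2 (0.26), LTV1 (0.32), PDCD2 (−0.30) and ASCC2 (0.19) all passed the same test.

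Ribosomal protein genes have many processed pseudogenes, and reads may be divided among them. The table held 1351 rows of such pseudogenes, which added up to 2246 ± 15.9 TPM in vehicle and 2203 ± 76.6 TPM with LLY-283. For most genes they were small beside the parent (median 0.322% of its level), but for 5 they passed 5%: RPS2 (20.2%), RPL39 (16.2%), RPL22 (15.1%), RPL23A (13.9%) and RPS27A (7.21%), of which RPL39 and RPS27A are named after their values were seen. With pseudogene TPM added to the parent, 7 genes were higher and 1 lower (8.68% and 17.8% of all genes), RPL23A being the gene no longer called. The readthrough gene RPL36A-HNRNPH2 was listed at 349.7 TPM, and RPS10-NUDT3, which overlaps RPS10, at 8.17 TPM.

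**Figure D5:**
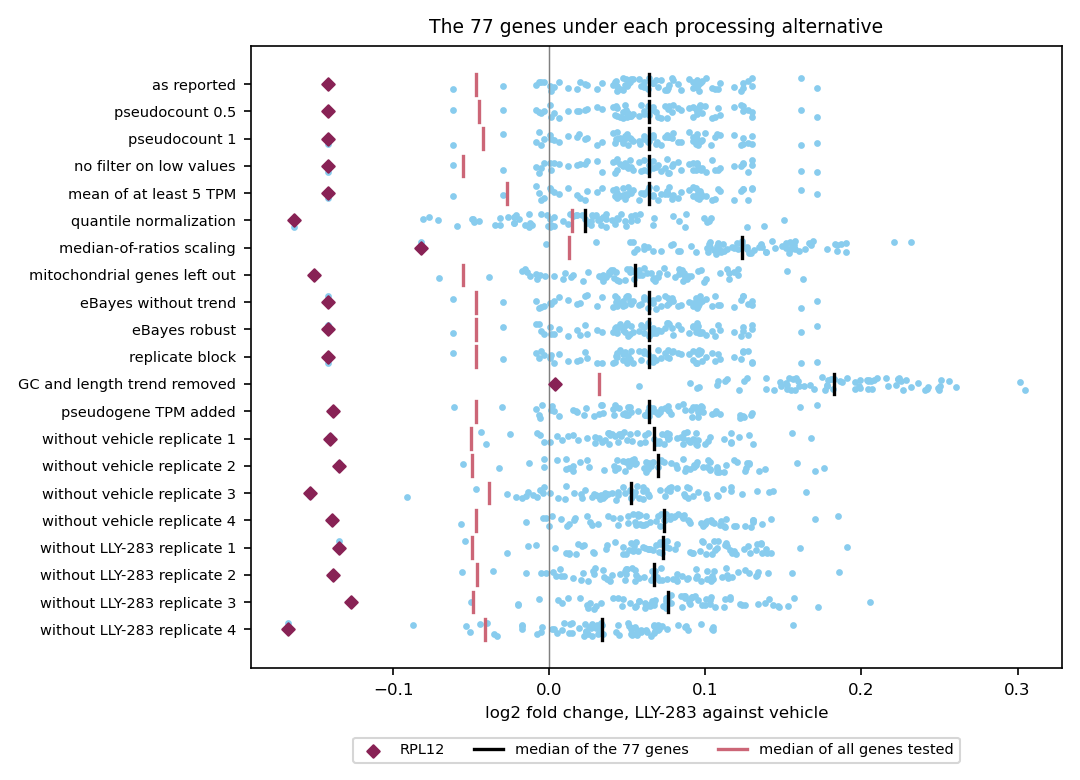
Log2 fold changes of the 77 genes under the main fit and each processing alternative, with each point a gene. The median lies between 0.02 (quantile normalization) and 0.18 (length and GC trend removed), and RPL12 is the lowest gene in all 21 settings, at 0.004 with that trend removed and below 0 in the others.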

How the data were processed

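Poly(A) RNA of 8 U251 libraries was sequenced. The submitters' processing notes name cutadapt 1.18, STAR 2.7.0f, RSEM 1.3.1 and hg38. The authors estimated gene levels with RSEM and deposited TPM, so values are relative within a library, depth is unknown, and no count test could be run. Strandedness is not given in the sources used here. TPM were tested with limma 3.58.1 (R 4.3.3) on log2(TPM + 0.1), a scale that understates changes of low genes, keeping genes that averaged 1 TPM or more, with an intensity trend and Benjamini-Hochberg adjustment over all 14478 genes. The procedure was tested on simulated data. Gene coordinates are GENCODE's on hg38, and promoter windows are RefSeq's.

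The members, gene lists and tests were chosen with earlier results of these data known. Named genes are the members past an adjusted p of 0.05, the 5 largest changes each way, the 5 highest and lowest means, 13 picked by role, RPL22L1, RPS27L, FAU and PRMT5, and, per companion list, the smallest p each way. Some genes that the rule names are not reported here. Genes outside the rule are marked as such or only complete a count. Alternatives covered pseudocount, filter, scaling, mitochondrial genes, variance model, replicate block, length and GC, pseudogenes, and leaving out each library. GC content and length were known for 99.9% of genes tested.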

Additional observations from a re-analysis of the deposited data

Results flagged for a closer look

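In groups of 4, 9 of 72 measures tested had a library far from the other 3 (a gap above Dixon's 95% critical value), a mark that chance gives in about 1 in 20 groups. The measures come from the same 8 libraries and many move together, so the 9 cannot be set against that rate as separate draws. All 9 fell on LLY-283 replicate 4 or vehicle replicate 3. LLY-283 replicate 4 was the high library for RPL11 (2228 TPM), RPL28 (1179 TPM), RPL4 (3814 TPM) and RPS27 (3696 TPM). In the same library the small subunit's part of the summed TPM was low (40.5%), as was the summed mitochondrial TPM (71943). Vehicle replicate 3 was the low library for RPLP2 (1324 TPM), RPS24 (1872 TPM) and the summed TPM of the small subunit genes (47365).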

How the results depend on the processing

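Against 8 higher and 1 lower gene, the count of higher genes was 2 with no filter on low values (2.60% of the 77, against 2.96% of all genes tested), 2 without the intensity trend (2.60% against 7.16%), 7 under quantile normalization (9.09% against 12.9%), 18 with mitochondrial genes left out (23.4% against 8.06%), 28 under median-of-ratios scaling (36.4% against 15.0%) and 61 with the length and GC trend removed (79.2% against 19.4%). The last 2 settings gave 0 lower genes, and quantile normalization gave 3. The median log2 fold change moved to 0.12 and 0.18, and the difference in summed TPM from 4671 to 9737 and 15077, under median-of-ratios scaling and the length and GC trend, which lift most of the genes together. Under quantile normalization the difference was 1180 TPM, and the median was 0.023 against 0.014 over all genes. With 1 library left out, the higher count ran from 2 (without vehicle replicate 1, 2 or 3) to 12 (without LLY-283 replicate 4), by way of 4 without vehicle replicate 4 or LLY-283 replicate 2. These counts are 2.60% to 15.6% of the 77, against 6.13% to 10.4% of all genes. The counts of 2 and 4 (2.60% and 5.19%) were each below the share of all genes in the same fit. The median ran from 0.03 to 0.08, and the genes lower without overlap were 2 without LLY-283 replicate 4, an alternative chosen after seeing the data. With a replicate block 11 genes were higher and 1 lower (14.3% and 1.3% of the 77, against 7.56% and 15.2% of all genes). Libraries that share a number did not deviate together (correlations −0.041, 0.032, −0.002 and −0.085), so the numbers are not read as pairs.

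Signs of log2 fold changes turned as follows. Quantile normalization gave −0.019 for RPL13A, −0.035 for RPS10, −0.031 for RPS2, −0.045 for RPS3 and −0.0014 for RPS6. Median-of-ratios scaling gave 0.053 for RPL28, 0.030 for RPS12 and 0.051 for RPS24. Removal of the length and GC trend gave 0.0040 for RPL12, 0.057 for RPL28, 0.12 for RPS12, 0.13 for RPS24 and 0.095 for RPS27, of which RPS12 and RPS24 passed as higher (limma adjusted p = 0.0187 and 0.0222). With mitochondrial genes left out RPS2 was at −0.0078. With 1 library left out the range was −0.053 to 0.013 for RPL28, −0.044 to 0.023 for RPS2, −0.033 to 0.011 for RPS24 and −0.017 to 0.041 for RPS3. Apart from the effects that the settings have by construction, the cause was not tested. Over the fold changes of the 30 named genes and all alternatives, 490 kept their direction and their side of the threshold, 51 lost a call, 33 gained one and 26 changed sign. TPM gives no depth, so counting error is not known.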
